A study of Homo sapiens with 14 samples.

Results

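The miR-181 family was followed through the 2 assays for N7-methylguanosine (m7G) in A549 cells, a human lung adenocarcinoma line. Its 7 listed mature strands, out of the 2588 mature miRNAs counted in each table, were chosen by name: hsa-miR-181a-5p, hsa-miR-181a-3p, hsa-miR-181a-2-3p, hsa-miR-181b-5p, hsa-miR-181c-5p, hsa-miR-181c-3p and hsa-miR-181d-5p. All RNA came from A549 cells grown in DMEM with serum, and no allele or drug set any group apart. In BoRed-seq, borohydride (NaBH4) reduced the m7G bases, acid then removed them, and a biotin probe on the abasic sites that were left allowed a streptavidin pulldown. The 2 Red libraries came from reduced RNA, and the 2 Ctrl libraries from RNA given NaBH4 that acid had inactivated. The protocol takes Ctrl RNA through the same acid and probe steps and gives no other route for it at the pulldown, so Ctrl is a control reaction and not RNA set aside before a pulldown. In m7G-RIP-seq, 5 IP libraries held decapped, denatured RNA precipitated with an anti-m7G antibody, and 5 Input libraries held the RNA before precipitation. All groups were 1 cell line, and the labels do not say whether replicates were separate cultures, so p-values measure only the spread between these libraries.

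Each miR-181 hairpin yields a strand from its 5′ side and one from its 3′ side, named 5p and 3p. A miRNA finds its mRNA targets mainly through its seed, bases 2 to 8 from the 5′ end, so strands with 1 seed can share targets. The family is best known from lymphocytes, where miR-181a tunes how strongly developing T cells respond through their antigen receptor, and it is also made in many other tissues. m7G is known from mRNA caps and from internal positions of tRNA and rRNA, where the enzyme METTL1 places it in tRNA.

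The mature sequences, from RefSeq on GRCh38.p14, are shown because the members that parted in the pulldowns differ by only a few bases. The seed is in capitals. The 4 strands from the 5p side have the same seed.

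hsa-miR-181a-5p: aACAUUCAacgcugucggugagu
hsa-miR-181b-5p: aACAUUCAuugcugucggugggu
hsa-miR-181c-5p: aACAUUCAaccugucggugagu
hsa-miR-181d-5p: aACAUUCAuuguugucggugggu

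The 3 strands from the 3p side have 3 different seeds.

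hsa-miR-181a-3p: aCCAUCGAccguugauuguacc
hsa-miR-181a-2-3p: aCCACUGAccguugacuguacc
hsa-miR-181c-3p: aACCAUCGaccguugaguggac

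With positions counted from 1 at the 5′ end and the base of the strand named first given first, hsa-miR-181a-5p and hsa-miR-181b-5p differ by A9U, C10U and A21G. hsa-miR-181b-5p and hsa-miR-181d-5p differ by C12U alone. The 3p strands of the 2 miR-181a hairpins, hsa-miR-181a-3p and hsa-miR-181a-2-3p, differ by U5C, C6U and U16C, so that neither the number nor the place of their guanines differs. Each of these has 4 guanines, hsa-miR-181c-5p has 5, hsa-miR-181a-5p and hsa-miR-181c-3p have 6, and hsa-miR-181b-5p and hsa-miR-181d-5p have 7 with a run of 3 near the 3′ end. The 1 other human miRNA in the RefSeq table with the 5p seed, hsa-miR-4262, had 0 counts in all 14 libraries.

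The 6 hairpins lie in 3 clusters (GRCh38), each in introns. MIR181A1 (chr1:198859044-198859153) and MIR181B1 (chr1:198858873-198858982) lie on the minus strand in the long noncoding RNA gene MIR181A1HG. MIR181A2 (chr9:124692442-124692551) and MIR181B2 (chr9:124693710-124693798) lie on the plus strand in MIR181A2HG, opposite an intron of the protein-coding gene NR6A1. MIR181C (chr19:13874699-13874808) and MIR181D (chr19:13874875-13875011) lie on the plus strand in an intron of NANOS3. hsa-miR-181a-5p and hsa-miR-181b-5p can come from 2 hairpins each, and the other 5 members from 1 hairpin each. The study allowed 1 mismatch in the alignment, so reads could pass between hsa-miR-181b-5p and hsa-miR-181d-5p, and how many did is not known.

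Library totals ran from 7097379 to 14874685 counts in Input, from 2854811 to 6452759 in IP, from 4678102 to 5874405 in Ctrl and from 242085 to 277498 in Red. A count of 0 in the smallest IP library allowed a share of up to 0.000105% of its counts (3 counts), and in the smallest Red library up to 0.00124%. These limits cover counting error only. The 6 epithelial miRNA markers looked at summed to 343 to 1002 CPM in Input (counts scaled to the library total), mostly hsa-miR-200b-3p at 258 to 850 CPM. hsa-miR-200a-3p, hsa-miR-200c-3p and hsa-miR-429 had 2.80 to 88.2 CPM. Near absent were hsa-miR-141-3p at 0 to 0.342 CPM and hsa-miR-205-5p at 0 to 1.88 CPM. The 4 blood-cell markers summed to 0.0799 to 1.95 CPM. The liver marker had 0 counts, and 3 muscle markers summed to at most 6.20 CPM in Input. The 2 neuron markers summed to 301 to 493 CPM, nearly all hsa-miR-9-5p, with hsa-miR-124-3p at 0 to 1.21 CPM. The endothelial marker had 316 to 515 CPM. In m7G-RIP-seq, replicates 1 to 3 and replicates 4 and 5 stood apart on the second principal component (15.3% of the variance), and values for each set are given for some of the results.

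In Input, the RNA before precipitation, the family was led by hsa-miR-181a-5p and hsa-miR-181b-5p. The 7 members together made up 0.324% ± 0.0663 of the Input counts (SD, n = 5). Of these family counts, hsa-miR-181a-5p held 53.1% ± 5.58, hsa-miR-181b-5p 35.1% ± 3.78, hsa-miR-181a-2-3p 7.21% ± 2.37, hsa-miR-181a-3p 2.86% ± 0.489 and hsa-miR-181d-5p 1.39% ± 0.343 (SD, n = 5). hsa-miR-181c-3p and hsa-miR-181c-5p, the strands of the miR-181c hairpin, were the rarest, at 0.288% ± 0.0574 and 0.0683% ± 0.0184. Over the 5 Input libraries, the range of each member stayed apart from that of the next in this order, as in 2.15% to 3.52% for hsa-miR-181a-3p and 0.994% to 1.79% for hsa-miR-181d-5p. In the Ctrl reactions of BoRed-seq the order was the same, and the family made up 0.103% ± 0.00135 of the counts (SD, n = 2) and hsa-miR-181a-5p held 56.1% ± 5.74 of the family.

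The first comparison asked which members the m7G antibody recovered. None of the 7 was enriched in IP and 6 were depleted, by 2.51-fold to 17.4-fold in the 5 that had more than 1 count in all of IP, while hsa-miR-181a-2-3p, the 3p strand of the second miR-181a hairpin, did not pass the test. Across the 670 miRNAs tested, 27.3% were called enriched and 29.9% depleted (DESeq2 Wald test, Benjamini-Hochberg adjusted p under 0.05). The median log2 enrichment, IP over Input, was -2.42 over the 7 members and 0.02 over all 670, whose quartiles were -1.39 and 1.19. hsa-miR-181c-5p reached 10 counts in Input alone, so the count and median describe the members that passed the filter. In counts scaled by medians of ratios, every IP library was below every Input library in 6 of the 7 members, which held for 24.2% of all miRNAs tested. An enrichment is relative to the typical miRNA of its assay, since counts were scaled by medians of ratios. Scaled by total counts instead, 232 miRNAs were enriched and 164 depleted in place of 183 and 200. The median of all miRNAs moved from 0.02 to 0.38, but the same 6 members remained depleted. On that scale the groups overlapped for hsa-miR-181d-5p, with 29.1 CPM in IP replicate 1 and 25.9 CPM in Input replicate 2. They also overlapped for hsa-miR-181c-3p, with 6.80 CPM in IP replicate 5 and 5.23 CPM in Input replicate 2.

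hsa-miR-181a-5p, the main strand of both miR-181a hairpins, had normalized counts of 12519, 11693, 10956, 18112 and 16913 in Input replicates 1 to 5 and of 889, 1000, 872, 1427 and 1505 in IP. All IP libraries were far below all Input libraries, and replicates 4 and 5 were higher than replicates 1 to 3 in both groups. The log2 enrichment was -3.62 ± 0.24 (SE, DESeq2 adjusted p = 8.95e-48), which is 12.3-fold lower in IP.

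hsa-miR-181b-5p, the main strand of the miR-181b hairpins, had the steadiest Input, at 9360, 8567, 9038, 9208 and 9177, against 3900, 3256, 2375, 2195 and 1882 in IP. It was 3.33-fold lower in IP, with a log2 enrichment of -1.74 ± 0.22 (DESeq2 adjusted p = 4.35e-14). The depletion was -1.54 ± 0.17 in replicates 1 to 3 and -2.20 ± 0.14 in replicates 4 and 5. A term for this difference, added after the values were seen, was past the threshold (DESeq2 log2 difference -0.67 ± 0.25, adjusted p = 0.0333). The same term was past the threshold for 26.8% of 488 miRNAs and for none of the other 5 members that had an adjusted p (0.0523 to 0.778).

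hsa-miR-181d-5p, which differs from hsa-miR-181b-5p by 1 base, had 309, 230, 284, 515 and 522 normalized counts in Input and 187, 119, 114, 138 and 181 in IP. The groups did not overlap, and the log2 enrichment was -1.33 ± 0.30 (DESeq2 adjusted p = 4.32e-05). hsa-miR-181c-5p had 15, 16, 31, 29 and 42 counts in Input (normalized 10.2 to 22.4), but 4 of the 5 IP libraries held 0 counts and IP replicate 4 held 1. The log2 enrichment of -5.60 ± 1.09 (DESeq2 adjusted p = 1.22e-06) therefore rested on 1 count in all of IP. Set by counts alone, the ratio of Input to IP was 68.9, with an exact 95% interval of 12.2 to 2742 that covers counting error only.

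Among the 3p strands, hsa-miR-181a-3p, made from MIR181A1, had 537, 646, 694, 856 and 1027 normalized counts in Input and 48.8, 7.38, 67.4, 47.6 and 47.0 in IP. IP replicate 2 was the lowest, from 6 counts, and no library of 1 group reached the other. The log2 enrichment was -4.12 ± 0.41 (DESeq2 adjusted p = 4.81e-22). hsa-miR-181a-2-3p, the matching strand from MIR181A2, had 2155, 1944, 2253, 1337 and 1438 in Input and 1831, 1336, 1328, 1451 and 1487 in IP, and these groups overlapped. Its log2 enrichment of -0.30 ± 0.21 did not pass the test (DESeq2 adjusted p = 0.214). In replicates 1 to 3 alone it was called depleted at -0.54 ± 0.17 (adjusted p = 0.00319), and in replicates 4 and 5 alone it was at 0.05 ± 0.16 (adjusted p = 0.813), while the term for that difference gave an adjusted p of 0.0523.

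hsa-miR-181c-3p, the second strand of the miR-181c hairpin, had 70.1, 46.4, 65.1, 103 and 99.1 normalized counts in Input and 1.32, 13.5, 0, 10.1 and 45.7 in IP. IP replicate 5 lay just under the lowest Input library, and the other 4 IP libraries far under it. The log2 enrichment was -2.42 ± 0.76 (DESeq2 adjusted p = 0.00344), and -3.51 ± 0.62 without IP replicate 5. It was -3.54 ± 0.97 in replicates 1 to 3 and -1.92 ± 0.64 in replicates 4 and 5. The term for that difference did not pass (DESeq2 adjusted p = 0.356).

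**Figure D1:**
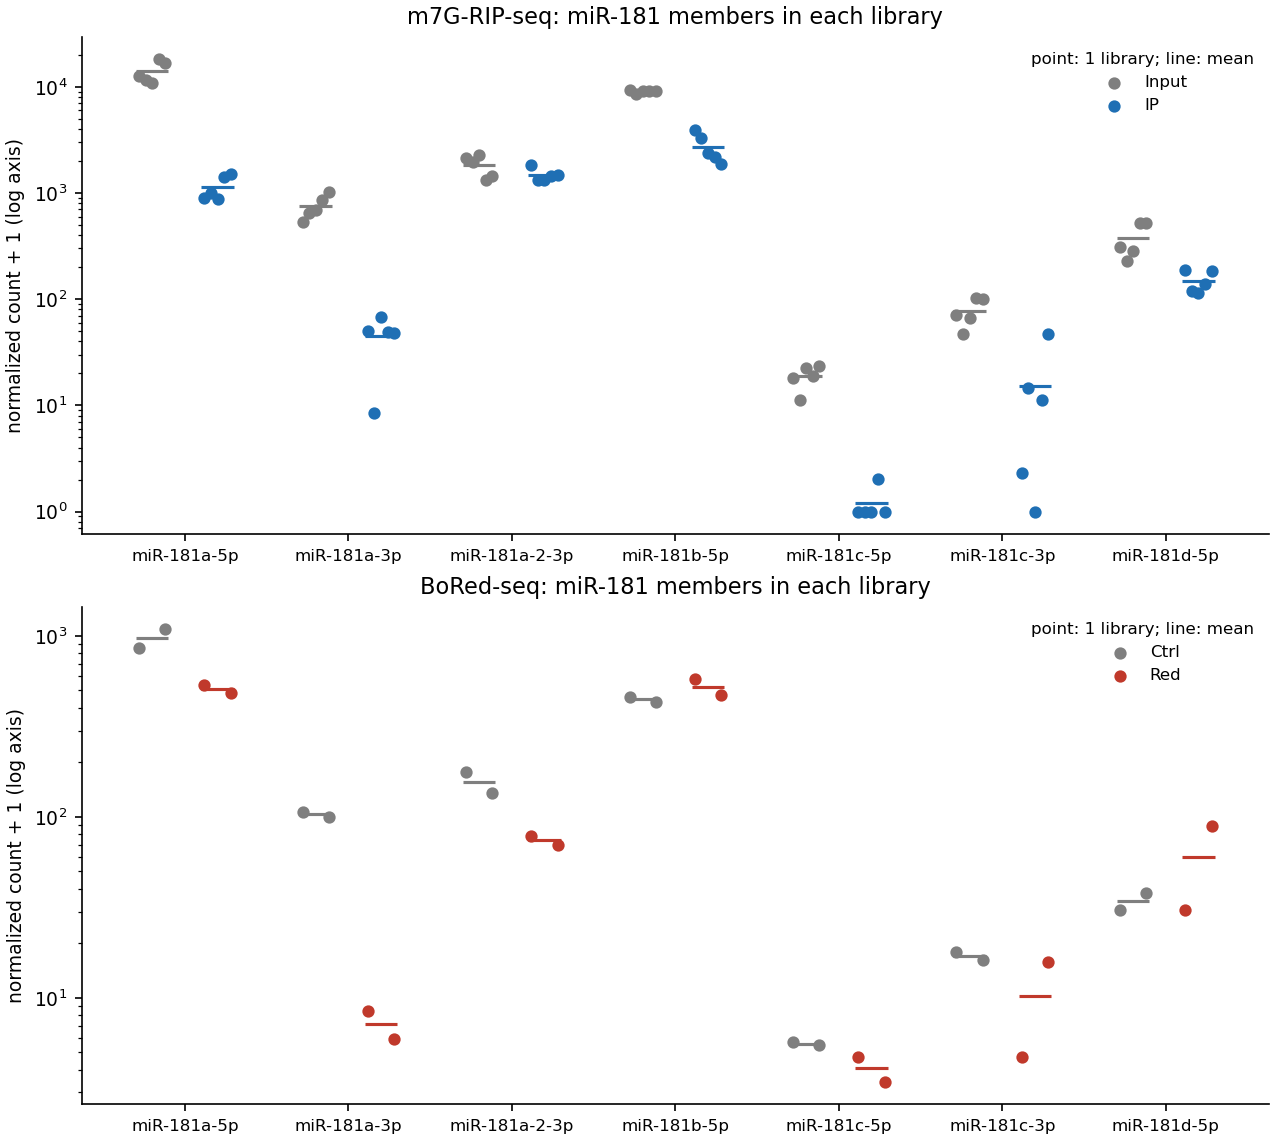
Normalized counts of the 7 members in each m7G-RIP-seq library (top) and BoRed-seq library (bottom), with 1 added, on a log axis. Each point is a library and each line a group mean. The IP points lie below the Input points for every member but miR-181a-2-3p, whose groups overlap, and the Red points lie well below the Ctrl points for miR-181a-3p.

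The members were then compared with each other inside each library, where scaling plays no part, as the log2 ratio of their counts with 0.5 added. Of 9 pairs, chosen with earlier results of these data known, 5 had a ratio that shifted between Input and IP with no overlap. All 5 had the smallest p that 5 against 5 libraries allow (two-sided exact permutation test, p = 0.00794, 0.0143 adjusted over the 9 pairs). This test did not use the replicate numbers, and pairs that share a member are not separate results. Across all pairs of the 670 miRNAs tested, 36.5% of ratios did not overlap between IP and Input. The shifts parted hsa-miR-181a-5p from hsa-miR-181b-5p and hsa-miR-181d-5p, and both hsa-miR-181a-5p and hsa-miR-181a-3p from hsa-miR-181a-2-3p. The fifth was hsa-miR-181c-5p against hsa-miR-181d-5p, in which the IP ratios are set mostly by the 0.5 added to the near-absent counts of hsa-miR-181c-5p.

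The log2 ratio of hsa-miR-181a-5p to hsa-miR-181b-5p was 0.42, 0.45, 0.28, 0.98 and 0.88 in Input and -2.13, -1.70, -1.44, -0.62 and -0.32 in IP. Thus hsa-miR-181a-5p was the more abundant in every Input library and hsa-miR-181b-5p in every IP library. The shift was -2.14 within replicates 1 to 3 and -1.40 within replicates 4 and 5. Against hsa-miR-181d-5p, the ratio of hsa-miR-181a-5p went from 5.29 ± 0.25 in Input to 2.93 ± 0.42 in IP (SD, n = 5). The ratio of hsa-miR-181c-5p to hsa-miR-181d-5p, both from the cluster on chromosome 19, went from -4.33 ± 0.43 to -7.44 ± 0.77, with 1 count of hsa-miR-181c-5p in all of IP.

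The largest shift of the 9 pairs was between the 3p strands of the miR-181a hairpins. The log2 ratio of hsa-miR-181a-3p to hsa-miR-181a-2-3p was -2.0, -1.59, -1.70, -0.64 and -0.49 in Input and -5.21, -7.39, -4.28, -4.91 and -4.97 in IP, a shift of -4.07. These strands, printed above, have their guanines at the same positions. The ratio of hsa-miR-181a-5p to hsa-miR-181a-2-3p went from 2.94 ± 0.66 to -0.41 ± 0.44 (SD, n = 5). hsa-miR-181a-5p stayed above hsa-miR-181a-2-3p in all 5 Input libraries, and in IP the ratio lay between -1.04 and 0.02.

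The other 4 pairs did not pass the unpaired test. The ratio of hsa-miR-181a-5p to hsa-miR-181a-3p, which may share a hairpin, was 4.23 ± 0.24 in Input and 4.94 ± 1.26 in IP (two-sided exact permutation p = 0.254, adjusted 0.286). hsa-miR-181b-5p to hsa-miR-181d-5p was 4.68 ± 0.50 and 4.17 ± 0.53 (exact p = 0.167, adjusted 0.214). Within replicate numbers, the IP ratio of this pair was below the Input ratio in all 5, with differences of -0.54, -0.46, -0.62, -0.17 and -0.77 in replicates 1 to 5. An exact sign-flip test over the 5 numbers, added after the values were seen, gave p = 0.0625. That is the smallest p it can give, so this design cannot pass the threshold. Each of the 5 pairs that passed the unpaired test also shifted the same way in all 5 numbers, with the same sign-flip p of 0.0625. hsa-miR-181a-5p to hsa-miR-181c-5p was 9.61 ± 0.45 and 10.4 ± 0.61 (exact p = 0.0635, adjusted 0.0952), and hsa-miR-181c-5p to hsa-miR-181c-3p was -2.07 ± 0.33 and -3.02 ± 2.43 (exact p = 0.405). The last 2 depended on the few counts of hsa-miR-181c-5p, and with 1 added in place of 0.5 the shift of the first went from 0.76 to -0.09.

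**Figure D2:**
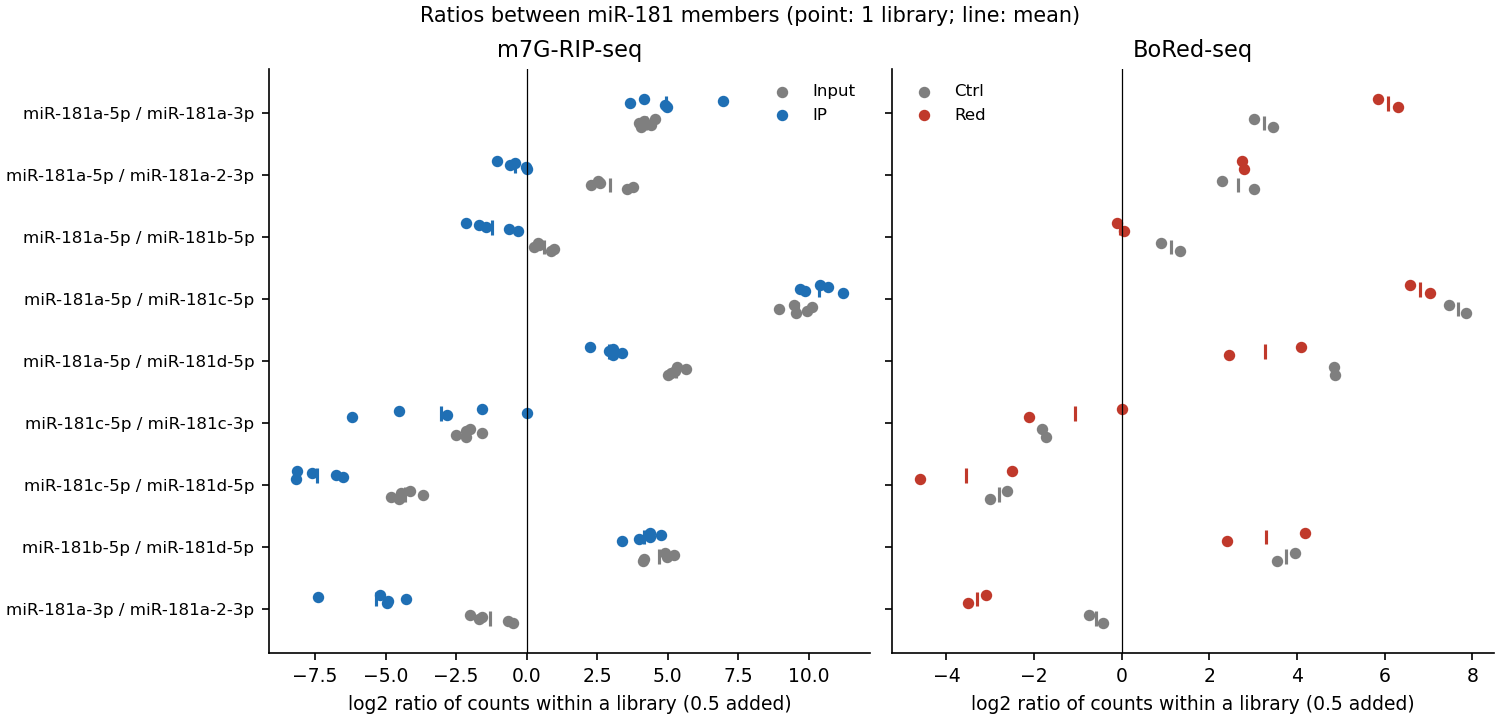
Log2 ratios of counts between members within each library, for 9 pairs, in m7G-RIP-seq (left) and BoRed-seq (right); the 2 horizontal axes have different ranges. Each point is a library and each short line a group mean. In m7G-RIP-seq the ratio of miR-181a-5p to miR-181b-5p lies above 0 in every Input library and below 0 in every IP library.

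The make-up of the family changed accordingly. The share of hsa-miR-181a-5p in the family counts was 47.0% to 60.1% in Input and between 12.96% and 29.2% in IP. hsa-miR-181b-5p held 30.5% to 38.8% in Input and 36.6% to 56.9% in IP, and hsa-miR-181a-2-3p 4.44% to 9.67% in Input and 23.3% to 28.9% in IP. The family as a whole made up 0.311%, 0.261%, 0.266%, 0.414% and 0.368% of the counts in Input replicates 1 to 5 and 0.107%, 0.0880%, 0.0791%, 0.0806% and 0.0766% in IP. This was 3.76-fold lower in IP, with no overlap (two-sided exact permutation p = 0.00794, the smallest that 5 against 5 allow). With hsa-miR-21-5p, a miRNA that is abundant in many cancer cells, left out of the totals, the family made up 0.558% ± 0.0832 of Input and 0.0911% ± 0.0124 of IP (SD, n = 5).

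**Figure D3:**
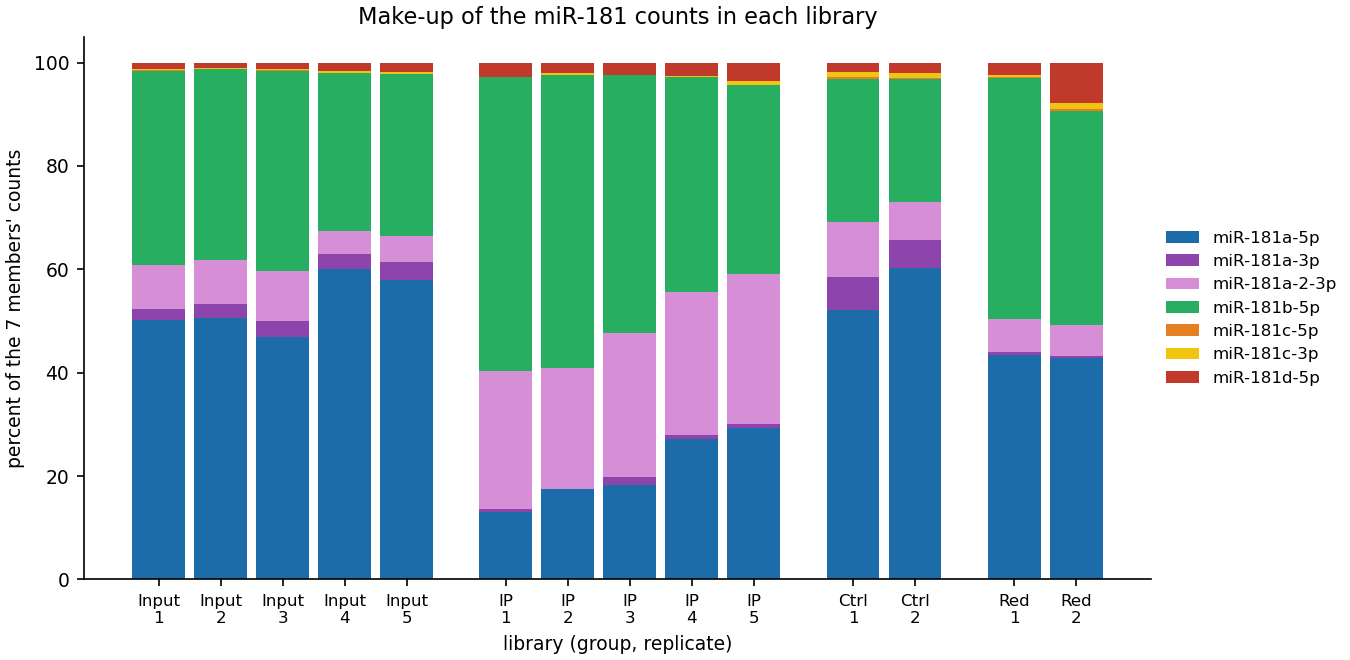
Share of each member in the counts of the 7 members, in percent, for each of the 14 libraries. miR-181a-5p (blue) holds 47.0% to 60.1% in Input and 12.96% to 29.2% in IP, while miR-181a-2-3p (pink) holds 4.44% to 9.67% and 23.3% to 28.9%.

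The second comparison asked the same of the chemical assay. Of the 7 members, 6 had an adjusted p, of which 3 were called depleted in Red and 0 enriched: hsa-miR-181a-5p, hsa-miR-181a-3p and hsa-miR-181a-2-3p, all strands of the miR-181a hairpins. Across 400 miRNAs, 27.2% were called depleted and 32.2% enriched (DESeq2, adjusted p under 0.05), and the median log2 enrichment, Red over Ctrl, was -0.83 over the 6 members and -0.09 over all, with quartiles of -1.74 and 2.16. Both Red libraries were below both Ctrl libraries for 4 of the 6 members and above them for 1, which held for 43.2% and 39.5% of all miRNAs. hsa-miR-181a-3p, hsa-miR-181c-5p and hsa-miR-181c-3p reached 10 counts in Ctrl alone, so these counts and the median are a description of the members that passed the filter.

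hsa-miR-181a-3p had normalized counts of 105 and 98.9 in Ctrl and 7.41 and 4.89 in Red, from 2 counts in each Red library. Its log2 enrichment was -4.10 ± 0.88 (DESeq2 adjusted p = 8.52e-06), and -3.87 to -4.24 with any 1 library left out. It passed the count filter through Ctrl alone, and a minimum of 10 counts in every library removed it. The ratio of Ctrl to Red by counts was 17.4, with an exact 95% interval of 6.77 to 64.1.

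hsa-miR-181a-5p had 862 and 1086 in Ctrl and 533 and 485 in Red, and hsa-miR-181a-2-3p had 176 and 134 in Ctrl and 77.8 and 68.5 in Red. The groups did not overlap, with log2 enrichments of -0.94 ± 0.31 (DESeq2 adjusted p = 0.00461) and -1.09 ± 0.45 (adjusted p = 0.0269). Without Ctrl replicate 2, Red replicate 1 or Red replicate 2, hsa-miR-181a-5p no longer passed (DESeq2 adjusted p of 0.0967, 0.106 and 0.0746), and hsa-miR-181a-2-3p did not pass without any 1 of the 4 libraries (0.123 to 0.370).

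hsa-miR-181b-5p had 461 and 429.1 normalized counts in Ctrl and 574 and 470 in Red. Both Red libraries were above both Ctrl libraries, and the log2 enrichment of 0.23 ± 0.31 did not pass (DESeq2 adjusted p = 0.538). hsa-miR-181d-5p had 29.6 and 36.8 in Ctrl and 29.6 and 88.1 in Red, from 8 and 36 counts in Red, with a log2 enrichment of 0.86 ± 0.64 (adjusted p = 0.245) that was -0.24 without Red replicate 2. hsa-miR-181c-3p had 16.9 and 15.2 in Ctrl and 3.70 and 14.7 in Red, and -0.73 ± 1.08 (adjusted p = 0.563) became 0.01 without Red replicate 1. hsa-miR-181c-5p, with 1 count in each Red library, got no adjusted p, and its ratio of Ctrl to Red by counts was 1.56 with an exact 95% interval of 0.395 to 13.5.

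These values depended on the scaling. With total counts in place of medians of ratios, the median over the 453 miRNAs fitted moved from -0.32 to 0.76, and 175 miRNAs were called enriched and 46 depleted in place of 129 and 109. hsa-miR-181a-3p was then at -2.98 (DESeq2 adjusted p = 0.00406) and remained depleted. hsa-miR-181b-5p was at 1.33 (adjusted p = 4.77e-04) and hsa-miR-181d-5p at 2.06 (adjusted p = 0.00491), both called enriched, while hsa-miR-181a-5p was at 0.18 (adjusted p = 0.676) and hsa-miR-181a-2-3p at 0.02 (adjusted p = 0.976).

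Ratios within a library are free of that choice, but with 2 libraries in each group no p under 0.33 can be reached, so they are given as values. The log2 ratio of hsa-miR-181a-3p to hsa-miR-181a-2-3p was -0.74 and -0.44 in Ctrl and -3.10 and -3.51 in Red. The ratio of hsa-miR-181a-5p to hsa-miR-181b-5p was 0.90 and 1.34 in Ctrl and -0.11 and 0.04 in Red. hsa-miR-181a-5p to hsa-miR-181d-5p was 4.86 and 4.88 in Ctrl and 4.09 and 2.44 in Red. For each of these 3 pairs the groups did not overlap and the shift had the sign seen in m7G-RIP-seq. The Red ratios of the first pair rest on 2 counts of hsa-miR-181a-3p in each Red library. Of the 9 pairs, 5 did not overlap, against 82.1% of all pairs of the 400 miRNAs tested, so such a separation is no result about the members. Another of the 5, hsa-miR-181a-5p to hsa-miR-181c-5p, shifted by -0.85, opposite to its 0.76 in m7G-RIP-seq, with 1 count of hsa-miR-181c-5p in each Red library. The shift of hsa-miR-181c-5p to hsa-miR-181c-3p was also opposite, at 0.71 against -0.95 in m7G-RIP-seq, with overlap in both assays. The ratio of hsa-miR-181a-5p to hsa-miR-181a-2-3p, which fell by 3.36 in m7G-RIP-seq, was 2.29 and 3.02 in Ctrl and 2.75 and 2.80 in Red, within the Ctrl range. Its mean shift in BoRed-seq was 0.12. The ratio of hsa-miR-181a-5p to hsa-miR-181a-3p was 3.03 and 3.45 in Ctrl and 5.85 and 6.31 in Red.

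The family made up 0.102% and 0.104% of the counts in Ctrl and 0.137% and 0.167% in Red (two-sided exact permutation p = 0.33, the smallest that 2 against 2 allow). The direction turned when hsa-miR-21-5p was taken out of the totals, with 0.507% ± 0.0324 in Ctrl and 0.208% ± 0.0283 in Red (SD, n = 2). hsa-miR-181b-5p held 23.8% and 27.8% of the family counts in Ctrl and 41.5% and 46.7% in Red.

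**Figure D4:**
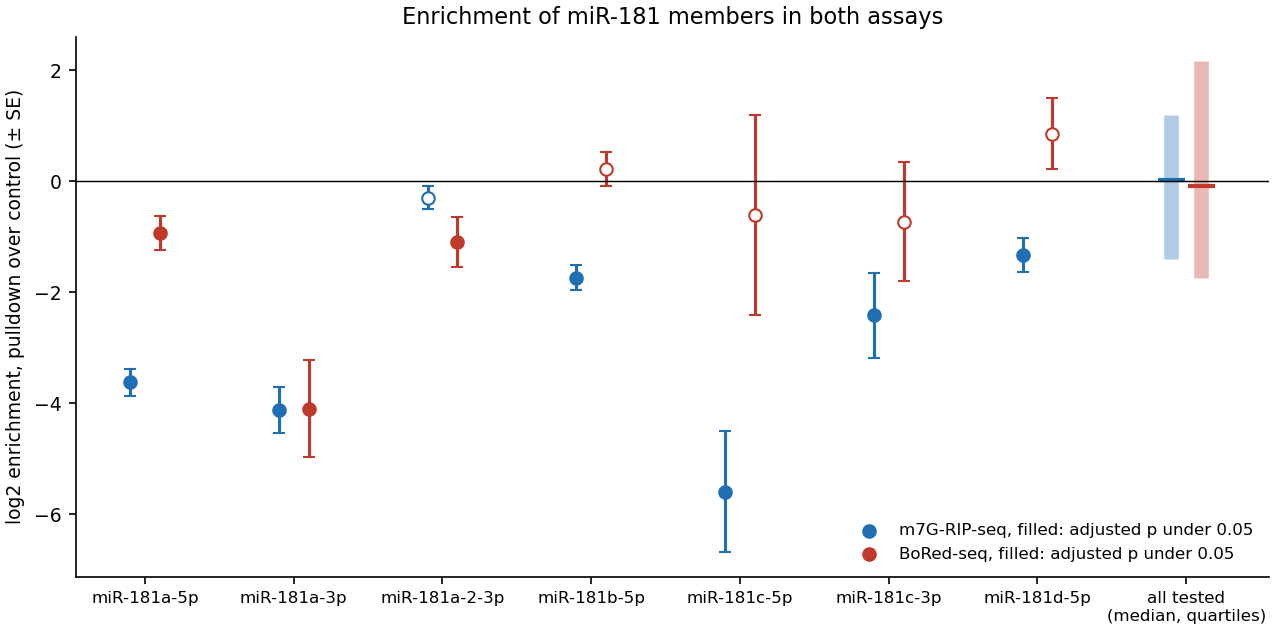
Log2 enrichment of each member in m7G-RIP-seq (IP over Input, blue) and BoRed-seq (Red over Ctrl, red), with the SE as error bars and filled points where the adjusted p was under 0.05. The bars at the right span the quartiles of all miRNAs tested, with the median as a line. miR-181a-3p lies near -4.1 in both assays, and miR-181a-5p, miR-181b-5p and miR-181d-5p lie higher in BoRed-seq.

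The assays differed for 3 of the 6 members with a value in both, and 38% of the 384 miRNAs compared differed by the same test (z test on the SEs, adjusted over all 384). hsa-miR-181a-5p, hsa-miR-181b-5p and hsa-miR-181d-5p, all 5p strands, were higher in BoRed-seq than in m7G-RIP-seq by 2.69 ± 0.39 (adjusted p = 1.29e-10), 1.96 ± 0.38 (2.21e-06) and 2.19 ± 0.71 (0.00807) on the log2 scale. For hsa-miR-181a-3p the difference was 0.02 ± 0.97 (adjusted p = 0.986), an SE that leaves room for a difference of over a log2 unit either way. hsa-miR-181a-2-3p differed by -0.79 ± 0.49 (adjusted p = 0.194) and hsa-miR-181c-3p by 1.69 ± 1.32 (adjusted p = 0.310). In 1 DESeq2 fit over all 14 libraries, hsa-miR-181a-2-3p differed by -1.24 ± 0.44 (adjusted p = 0.0203) and hsa-miR-181c-5p by 4.53 ± 1.70 (adjusted p = 0.0278), beside the same 3.

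The arms of a hairpin were compared over all names with both arms tested. In m7G-RIP-seq the 5p strand was above the 3p strand in 59.4% of 155 names, by a median log2 difference of 0.36 with quartiles of -0.92 and 1.88. hsa-miR-181a-5p minus hsa-miR-181a-3p was 0.50, between those quartiles, and hsa-miR-181c-5p minus hsa-miR-181c-3p was -3.18, above 7.10% of names. The value for miR-181c rests on 1 count of hsa-miR-181c-5p in all of IP. The within-library ratio of its strands shifted by -0.95, with overlap (exact permutation p = 0.405). In BoRed-seq the 5p strand was above in 47.7% of 86 names, with a median of -0.27 and quartiles of -1.15 and 1.29. The difference for miR-181a was 3.17, above 86.0% of names, and rests on 2 counts of hsa-miR-181a-3p in each Red library. hsa-miR-181a-5p also comes from MIR181A2, whose 3p strand is hsa-miR-181a-2-3p, and its counts cannot be divided between the hairpins. Against that strand the difference was -3.33 in m7G-RIP-seq, above 6.45% of names, and 0.15 in BoRed-seq, above 57.0% of names, so the place of miR-181a among all names depended on which 3p strand was used.

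**Figure D5:**
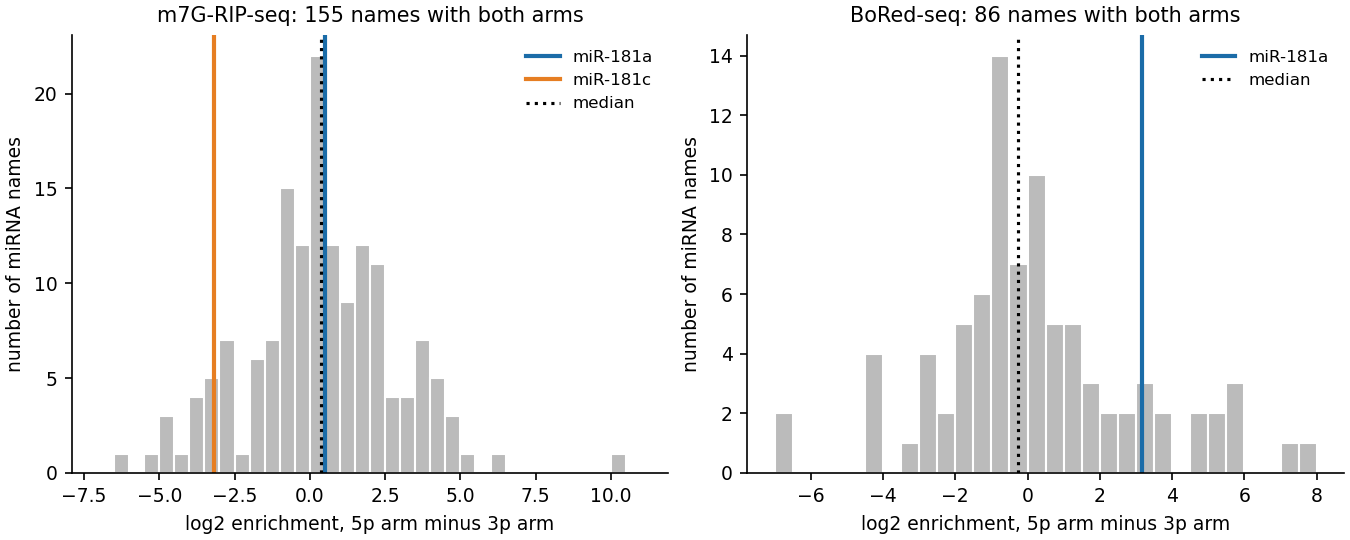
Number of miRNA names by the difference in log2 enrichment between the 5p and the 3p arm, in m7G-RIP-seq (155 names, left) and BoRed-seq (86 names, right). miR-181a (5p strand minus hsa-miR-181a-3p) lies at 0.50 and 3.17, miR-181c at -3.18 in m7G-RIP-seq, and dotted lines give the medians of 0.36 and -0.27. The -3.18 rests on 1 count of hsa-miR-181c-5p in all of IP, and the 3.17 on 2 counts of hsa-miR-181a-3p in each Red library.

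For each member looked at, the 3 nearest patterns over the 10 m7G-RIP-seq libraries were those of other families, to which nearly all miRNAs compared belong. Likeness was measured as the root mean square difference (RMS) of centred log2 counts, over 669 other miRNAs, for the 5 members with a mean of at least 100. hsa-miR-181a-5p was nearest to hsa-miR-769-5p (RMS 0.336), hsa-miR-30a-5p (0.352) and hsa-miR-1296-5p (0.375), with hsa-miR-181c-5p at rank 7 and hsa-miR-181b-5p at rank 92. hsa-miR-181b-5p was nearest to hsa-miR-378a-3p (0.274), hsa-miR-125b-2-3p (0.275) and hsa-miR-31-5p (0.310), with hsa-miR-181d-5p at rank 28. hsa-miR-181d-5p was nearest to hsa-miR-361-3p (0.267), hsa-miR-10b-5p (0.292) and hsa-miR-15b-5p (0.303), with hsa-miR-181b-5p at rank 44. hsa-miR-181a-3p was nearest to hsa-miR-101-3p (0.740), hsa-miR-381-3p (0.763) and hsa-miR-1296-5p (0.770), with hsa-miR-181c-5p at rank 6 and hsa-miR-181a-5p at rank 12. Since hsa-miR-181c-5p had a mean of only 9.02 normalized counts, its ranks 7 and 6 rest on few counts. hsa-miR-181a-2-3p was nearest to hsa-miR-27a-5p (0.175), hsa-miR-7974 (0.212) and hsa-miR-3615 (0.222), with hsa-miR-181a-3p at rank 626.

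Guanine content was set beside these values, since the m7G that both assays target is a methylated form of it. Across the miRNAs with a RefSeq sequence, the number of guanines and the log2 enrichment had a Pearson's r of 0.373 in BoRed-seq (355 miRNAs) and 0.417 in m7G-RIP-seq (602 miRNAs). This describes miRNAs that share libraries and base composition, and miRNAs are not independent replicates. The median was 6 guanines with quartiles of 4 and 8. hsa-miR-181b-5p and hsa-miR-181d-5p, with 7 guanines, had higher enrichments than hsa-miR-181a-5p with 6 in both assays. In BoRed-seq neither strand with 7 guanines passed the test. hsa-miR-181c-3p, also with 6 guanines, was at -2.42 in m7G-RIP-seq, against -3.62 for hsa-miR-181a-5p. In BoRed-seq hsa-miR-181c-3p was at -0.73 and hsa-miR-181c-5p, with 5 guanines, at -0.61, both above hsa-miR-181a-5p at -0.94. Both rest on few Red counts, and neither was called. In m7G-RIP-seq hsa-miR-181c-5p was the lowest member at -5.60, from 1 count in all of IP. The 2 miR-181a 3p strands, with 4 guanines each at the same positions, had enrichments of -4.12 and -0.30 in m7G-RIP-seq and -4.10 and -1.09 in BoRed-seq.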

How the data were processed

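Small RNA of A549 cells was sequenced in 14 libraries, 2 Red, 2 Ctrl, 5 IP and 5 Input, grouped by their labels. The authors deposited raw read counts per mature miRNA, 1 table per assay, neither normalized nor pooled, with 0 columns that matched no library. The methods of the study give Trimmomatic, STAR on hg38 (end to end, few mismatches, reads of several loci kept up to a limit) and featureCounts on miRBase, while the submitters' processing notes name Trimmomatic, Bowtie2 and featureCounts with GRCh38 and hg38. Whether reads that fit 2 hairpins, or strands 1 base apart, were shared between them, and how many, is therefore not known.

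Enrichment was tested by DESeq2 1.42.0 (Wald test, R 4.3.3), as in the study, separately for the 2 assays. A miRNA entered with 10 counts or more in 2 BoRed-seq or 5 m7G-RIP-seq libraries. Values are unshrunken, adjusted by the Benjamini-Hochberg method over all miRNAs tested and called under 0.05. Member ratios used 0.5 added counts and two-sided exact permutation tests (scipy 1.17.1), adjusted over 9 pairs per assay. Intervals of count ratios are exact, at 95%. The libraries have no molecular identifiers in these tables. edgeR 4.0.16 (quasi-likelihood, TMM), other scalings, filters, thinning and left-out libraries were alternatives. DESeq2 and edgeR were tested on simulated counts, and the exact permutation test on constructed values. The m7G-RIP-seq replicate numbers were taken to pair libraries, since IP and Input of 1 number deviated together from their group means (correlations 0.146 to 0.387, all 5 over the limit set). For replicates 2 and 4 another number matched better, and the labels do not say what a number shares. The main tests did not use this pairing, which entered only through the replicate block and the sign-flip test.

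The members and lists were chosen with earlier results of these data known. Named miRNAs are the 7 members, miRNAs of the same seed and markers of cell types. The 3 nearest by pattern are also named for each member whose normalized counts average 100 or more.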

Additional observations from a re-analysis of the deposited data

Results flagged for a closer look

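Of 34 sets of 5 m7G-RIP-seq libraries looked at for a library far from the others, 1 stood out. By chance the rule marks about 1 set in 20 where values are normally distributed. A set with a count in 1 library and 0 in the other 4, as here, is always marked. IP replicate 4 had 1.01 normalized counts of hsa-miR-181c-5p, from 1 count, where the other 4 IP libraries had 0.

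The log2 enrichments in BoRed-seq and m7G-RIP-seq differed by the z test for 3 members, higher in BoRed-seq by 2.69 for hsa-miR-181a-5p, 1.96 for hsa-miR-181b-5p and 2.19 for hsa-miR-181d-5p. The assays differ in chemistry, control, depth and number of libraries, which cannot be told apart here.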

How the results depend on the processing

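In m7G-RIP-seq the 6 depleted members stayed called under every alternative in which they could be fitted, by edgeR as well as DESeq2. In the unpaired permutation test, 5 pairs passed under each alternative that left enough libraries to reach the threshold. The sign-flip test within replicate numbers could pass no pair, since the smallest p it can give is 0.0625. A minimum of 10 counts in every library left 4 members, 3 of them depleted, since hsa-miR-181a-3p, hsa-miR-181c-5p and hsa-miR-181c-3p were no longer tested. hsa-miR-181a-2-3p turned to 0.056 under total-count scaling and to 0.048 in replicates 4 and 5 alone, and the log2 shift of hsa-miR-181a-5p over hsa-miR-181c-5p to -0.093 with 1 added. The replicate block changed no member's call there, with hsa-miR-181c-3p at -3.24. Within replicate numbers 6 pairs shifted the same way in all 5.

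In BoRed-seq, 3 members were depleted and 0 enriched, against 1 and 2 under total-count scaling and 1 depleted with Ctrl thinned to the Red depth, where 3 members had too few counts to be tested. Leaving out 1 library left 1 to 2 depleted, and 5 to 8 pairs that did not overlap in place of 5, with 1 library on 1 side. The 2 same-numbered pairs correlated at 0.110, which pairs no libraries by the rule used, and the replicate block left 2 depleted, with hsa-miR-181a-2-3p at -1.07. Under total-count scaling hsa-miR-181a-5p turned to 0.18, hsa-miR-181a-2-3p to 0.020 and hsa-miR-181c-3p to 0.45, and hsa-miR-181b-5p turned to -0.26 with no count filter. With 1 library left out, hsa-miR-181c-3p ran from -2.20 to 0.011 and hsa-miR-181d-5p from -0.24 to 1.55. The difference in family share turned from 0.0492 to -0.299 percentage points without hsa-miR-21-5p. Causes beyond the loss of counts or libraries were not tested.

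Between assays, 5 members differed in 1 fit over all libraries in place of 3, and hsa-miR-181a-3p turned to -0.42. Over all miRNAs in BoRed-seq, 109 were depleted and 129 enriched, against 167 and 128 by edgeR, 46 and 175 under total-count scaling, 71 and 71 with 10 counts in every library, 62 and 103 without Ctrl replicate 2 and 57 and 114 with thinning. In m7G-RIP-seq, 200 depleted became 116 with 10 counts in every library. Halving counts of strands from 2 hairpins was not run, since odd counts show they were not doubled. Depth limits hsa-miR-181c-5p, with 2 counts in all of Red and 1 in all of IP.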

Other observations

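The tables hold 3 further strands of the family, all rare. hsa-miR-181b-3p, from MIR181B1, had 12 to 59 counts in Input and 0 to 13 in IP, with a log2 enrichment of -2.26 ± 0.87 (DESeq2 adjusted p = 0.0178), against -1.74 for hsa-miR-181b-5p. In BoRed-seq it had 20 and 15 counts in Ctrl and 0 and 1 in Red and no adjusted p. hsa-miR-181b-2-3p and hsa-miR-181d-3p had too few counts to be tested in either assay, with at most 37 and 9 counts in any library.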
